A study of Mus musculus with 30 samples.

Results

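The expression of 9 genes was followed in the colon of male and female mice with and without chemically induced colitis. They were 7 genes used as markers of endothelium (Pecam1, Cdh5, Kdr, Flt1, Vwf, Tek and Eng) and the ETS transcription factor genes Ets1 and Elk3. The genes were picked by their symbols from the 46078 genes of the count table, and each had 1 row there. Wild-type C57BL/6J mice, 5 to 10 weeks old at the start, received vehicle (saline of 0.9%) or a single intraperitoneal dose of azoxymethane (AOM, 10 mg/kg), a carcinogen, and then 3 cycles of 2.5% dextran sulfate sodium (DSS), an irritant that injures the colon lining, in the drinking water. Vehicle mice were killed at 9 weeks and AOM/DSS mice at 9 or 15 weeks, with 5 females and 5 males in each condition and 1 library of poly(A) RNA from the scraped epithelial layer of each colon. No vehicle group was taken at 15 weeks, so treatment and time cannot be told apart there, and the same vehicle mice serve in both comparisons with vehicle. The scraped layer was not sorted, and the labels name no cell type other than epithelium. In bulk libraries of this kind, fewer endothelial cells and less RNA per endothelial cell cannot be told apart.

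Endothelial cells line every blood vessel. They respond to vascular endothelial growth factor through Kdr, the main signalling receptor, and Flt1, a receptor that also traps the ligand, while Tek is the receptor for angiopoietins and Eng a co-receptor for ligands of the TGF-beta family. Pecam1 and Cdh5 are adhesion proteins of the contacts between endothelial cells, and Vwf is the clotting protein that endothelial cells store and release. ETS factors bind DNA at the core GGAA, and many enhancers of endothelial genes hold such sites. Ets1 is expressed in angiogenic endothelium and in lymphocytes, and Elk3 encodes a ternary complex factor that can repress its targets and that is switched to activation by MAP kinase signalling. In inflamed intestine, the vessels widen and multiply and their cells display adhesion molecules for leukocytes.

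Promoter sequence was available here for 5 of the 9 genes (Kdr, Flt1, Tek, Eng and Elk3), as the 250 bases before the annotated start in RefSeq on build GRCm38.p6. Those of the VEGF receptor genes Kdr and Flt1, which had the highest Pearson's r of any pair over the libraries, and that of Elk3 are shown because the core that ETS factors bind can be looked for in them. Each is written 5′ to 3′ on the strand of the gene, and the capitals mark GGAA or its complement TTCC. The Kdr stretch is chr5:75978456-75978705 on the minus strand, the Flt1 stretch chr5:147726012-147726261 on the minus strand, and the Elk3 stretch chr10:93311160-93311409 on the minus strand.
Kdr: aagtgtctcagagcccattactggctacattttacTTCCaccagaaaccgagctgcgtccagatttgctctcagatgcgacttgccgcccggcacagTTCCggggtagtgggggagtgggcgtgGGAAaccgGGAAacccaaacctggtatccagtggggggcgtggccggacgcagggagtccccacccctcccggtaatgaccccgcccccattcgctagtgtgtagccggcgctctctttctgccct
Flt1: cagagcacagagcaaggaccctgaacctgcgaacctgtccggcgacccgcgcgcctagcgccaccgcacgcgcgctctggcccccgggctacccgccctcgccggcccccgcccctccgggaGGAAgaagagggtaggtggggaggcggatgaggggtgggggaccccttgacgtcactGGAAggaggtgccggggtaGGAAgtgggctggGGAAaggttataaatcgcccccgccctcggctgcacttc
Elk3: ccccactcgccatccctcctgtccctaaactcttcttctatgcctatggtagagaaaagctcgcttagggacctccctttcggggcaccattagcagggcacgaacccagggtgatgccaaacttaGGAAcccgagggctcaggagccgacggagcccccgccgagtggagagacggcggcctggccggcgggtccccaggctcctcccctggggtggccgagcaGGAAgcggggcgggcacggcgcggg
The core occurred 4 times in the Kdr stretch, 4 times in that of Flt1 and 2 times in that of Elk3. It occurred 2 times in the Tek stretch and 3 times in that of Eng. Such matches are common: GGAA, searched on both strands, was present in 93.4% of the 27025 promoter stretches of this length, with a median of 3 per stretch. The longer ETS1 consensus CCGGAAGT, which contains that core, was absent from all 5 stretches and present on either strand in 2.93% of all promoters.

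The libraries held 9265804 to 30806392 counts assigned to genes, and all 9 genes passed the filter on low counts, as 9 of 16261 genes tested. Levels are given as CPM, counts relative to the library size after TMM scaling, a correction for library composition. Departures from the other libraries of a group, in 4 libraries, bear on what follows: in 1 library each, the total count was low (female vehicle replicate 5, 9265804 counts), the fibroblast markers were high (female vehicle replicate 1) or low (female AOM/DSS 9 weeks replicate 5), and the smooth muscle markers were high (male vehicle replicate 1). Where leaving out these 4 libraries changed a call or an adjusted p across 0.05 in a comparison with the sexes averaged, that value stands beside the result. The fibroblast score followed the 7 endothelial genes (median Pearson's r of 0.911). By it, the vehicle female with the highest mean log2 CPM of the 7 genes (2.53) and the 9-week female with the lowest (0.19) were left out. Values without the 4 libraries thus come from libraries picked in part on these genes and are no independent support. Epithelial markers were present in every library, with a summed level of 13219 to 23922 CPM over 9 genes, while the 7 endothelial genes summed to 7.52 to 96.0 CPM. The 7 endothelial genes were therefore a minor component of each library.

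On a scale that accounts for transcript length, Pecam1 was the most abundant of the 9 genes, with a median of 1.83 TPM (a level corrected for transcript length, as deposited) over the 30 libraries. Ets1 followed with a median of 0.903 TPM and Elk3 with 0.543 TPM. Pecam1 exceeded Ets1 in 27 of 30 libraries, and Ets1 exceeded Elk3 in 26. Eng came next at a median of 0.445 TPM, then Vwf at 0.331, Cdh5 at 0.246, Kdr at 0.212, Flt1 at 0.205 and Tek at 0.123 TPM. Several neighbours in this order were not separated: Eng exceeded Vwf in 16 of 30 libraries and Cdh5 exceeded Kdr in 13 of 30. When CPM was divided by exon length instead, Elk3 stood above Ets1, Cdh5 above Vwf and Tek above Flt1. Mitochondrial genes took 51.8% to 76.3% of all TPM in a library, so comparisons between groups were made on counts.

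**Figure D1:**
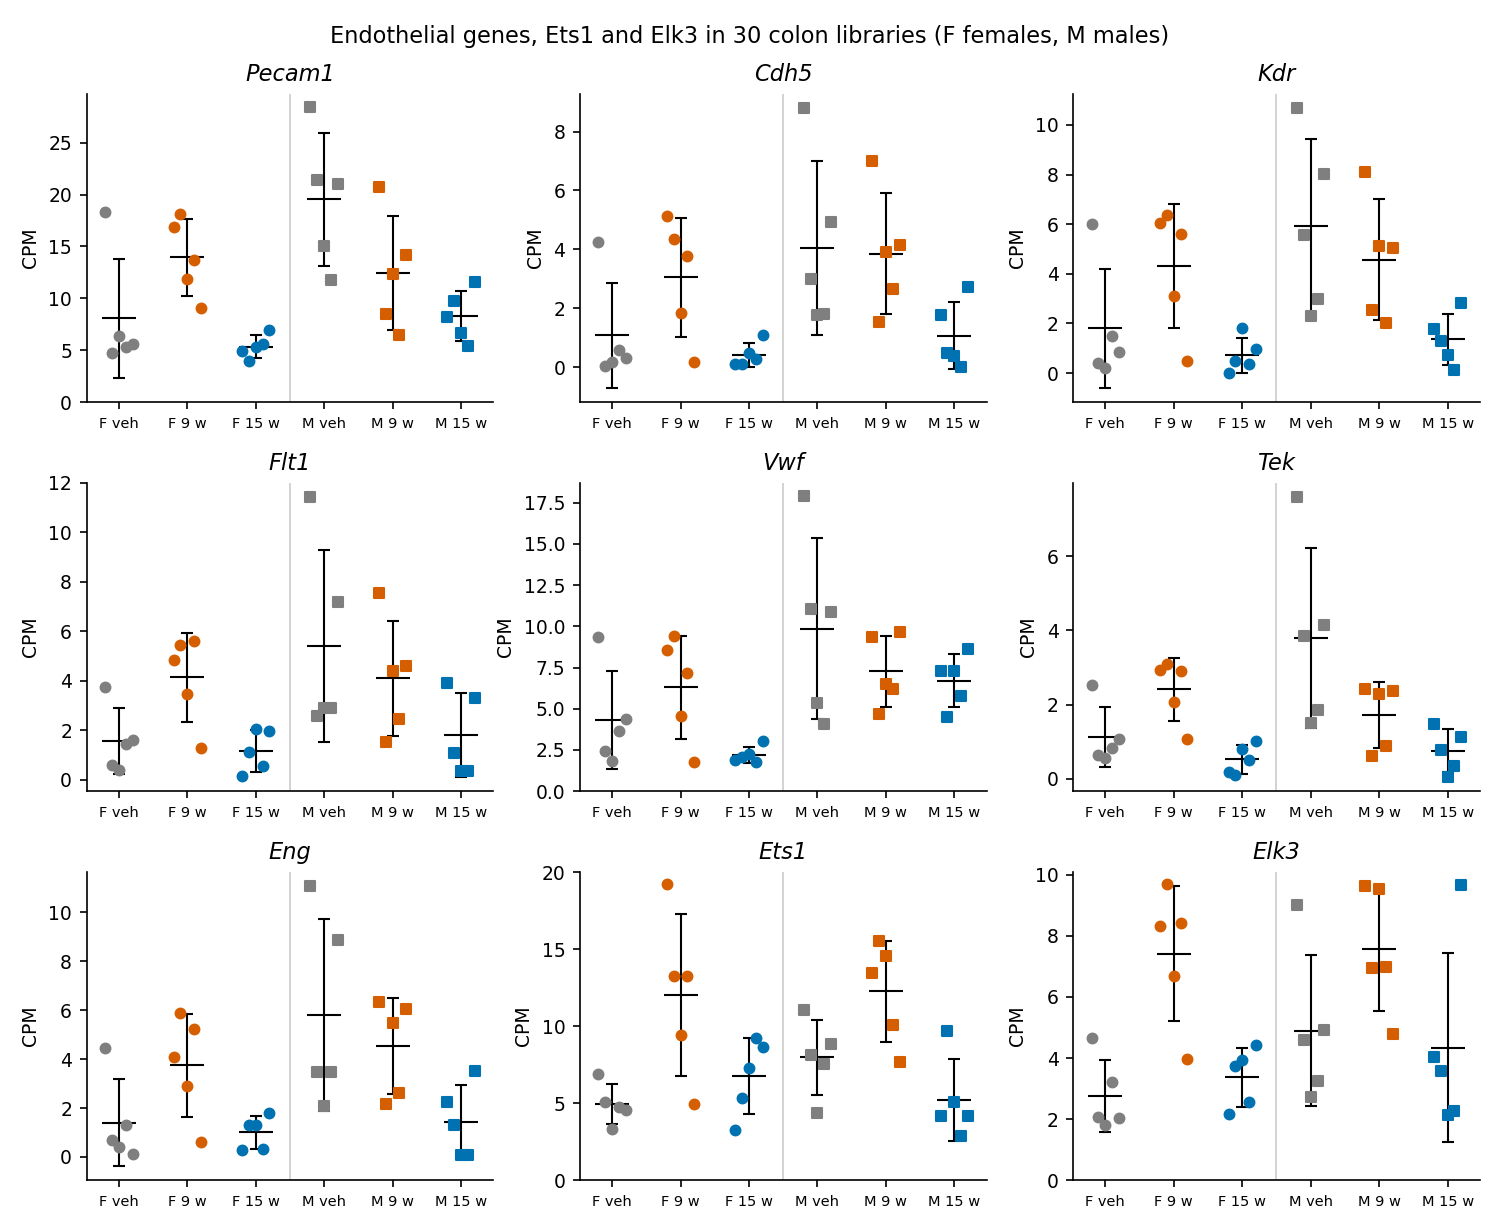
CPM (TMM-scaled, linear axes starting at or below 0) of the 9 genes in each of 30 libraries, by group of 5 mice (circles and F, females; squares and M, males; grey, vehicle; orange, AOM/DSS 9 weeks; blue, AOM/DSS 15 weeks); horizontal marks and bars are the mean ± SD. Ets1 and Elk3 were highest at 9 weeks in both sexes by group mean, whereas the vehicle mean of the 7 endothelial genes was higher in males than in females.

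The first comparison asked how the acute phase of colitis, 9 weeks after AOM, differed from vehicle. Ets1 and Elk3 rose, each to about the same extent, while none of the 7 endothelial genes passed the test with all libraries in; without the 4 libraries that stood apart, Cdh5 and Vwf passed by adjusted p. In females, Ets1 stood at 6.90, 5.07, 3.33, 4.73 and 4.59 CPM in the vehicle libraries and at 19.2, 13.3, 9.45, 13.3 and 4.95 CPM at 9 weeks. In males it stood at 11.1, 8.09, 4.38, 7.53 and 8.81 CPM in vehicle and at 13.5, 15.5, 14.5, 10.1 and 7.67 CPM at 9 weeks. Of the treated mice, 4 of 5 females and 3 of 5 males lay above the highest vehicle library of their sex, and the groups overlapped in both sexes. With the sexes averaged, the vehicle mean was 6.45 ± 2.43 CPM and the 9-week mean 12.1 ± 4.14 CPM (SD, n = 10 each), a log2 fold change of 0.95 ± 0.24 (SE, adjusted p = 0.00539, edgeR).

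Elk3 had a similar pattern at a lower level. In females it measured 4.65, 2.07, 1.81, 3.22 and 2.03 CPM in vehicle and 8.33, 9.69, 6.67, 8.42 and 3.98 CPM at 9 weeks. In males it measured 9.01, 4.58, 2.73, 3.25 and 4.93 CPM in vehicle and 9.64, 6.94, 9.52, 6.97 and 4.79 CPM at 9 weeks. As for Ets1, 4 of 5 treated females lay above every vehicle female; 2 of 5 treated males lay above every vehicle male, since vehicle replicate 1, at 9.01 CPM, was higher than the other 3. The mean went from 3.83 ± 2.15 to 7.5 ± 2.0 CPM (SD, n = 10 each), a log2 fold change of 1.02 ± 0.26 (SE, adjusted p = 0.00764, edgeR). The rule for a call asked for an adjusted p under 0.05, a log2 fold change beyond 0.4 in either direction and a mean of 1 FPKM or more in a compared condition. By that rule, 2 of the 9 genes were called higher against 5.51% of all genes tested, and 0 were called lower against 2.78%. Both calls held without each library in turn, with log2 fold changes of 0.84 to 1.04 for Ets1 and 0.95 to 1.19 for Elk3, and were larger, at 1.21 and 1.39, without the 4 libraries that stood apart.

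The 7 endothelial genes had log2 fold changes of -0.029 to 0.69 at 9 weeks with adjusted p of 0.503 to 0.973, and a median of 0.43, beside a median of -0.024 over all genes. Cdh5 had the largest estimate, 0.69 ± 0.62 (SE), with a 95% interval of -0.52 to 1.90. Without the 4 libraries that stood apart, Cdh5 had 2.12 (adjusted p = 0.0124, edgeR) and Vwf 0.69 (0.0333), while Kdr (1.43, 0.059), Flt1 (1.32, 0.0651), Eng (1.25, 0.102), Tek (0.64, 0.347) and Pecam1 (0.49, 0.0935) were higher by estimate and did not pass. Those libraries were picked in part by a score that followed the endothelial genes, so the passes of Cdh5 and Vwf are no independent support. With all libraries in, the interval for Pecam1, the best measured of the 7, ran from -0.40 to 0.52, so that a doubling of Pecam1 lay outside it while a doubling of Cdh5 did not. The call rule also needs a mean FPKM of 1, which 3 of the 9 genes reached in some condition (Pecam1, Ets1 and Elk3), so for the other 6 genes the adjusted p is the measure to read.

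The second comparison set the later phase, 15 weeks, against vehicle. The 7 endothelial genes were all lower on average, Pecam1 by the call rule and Tek and Kdr by adjusted p alone, while the means of Ets1 and Elk3 were close to vehicle. Pecam1 stood at 18.3, 4.74, 6.37, 5.35 and 5.65 CPM in vehicle females and at 4.94, 3.99, 5.30, 5.60 and 6.98 CPM in females at 15 weeks. In males it stood at 28.4, 21.5, 15, 11.7 and 21.0 CPM in vehicle and at 8.19, 9.71, 6.68, 5.37 and 11.6 CPM at 15 weeks. The female groups lay in the same range apart from vehicle replicate 1, whereas every male at 15 weeks was below every vehicle male. With the sexes averaged, Pecam1 fell from 13.8 ± 8.34 to 6.83 ± 2.37 CPM (SD, n = 10 each; log2 fold change -0.91 ± 0.24 SE, adjusted p = 0.0119, edgeR). This made 1 of the 9 genes called lower against 3.89% of all genes, and 0 called higher against 3.46%.

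Tek, the angiopoietin receptor, measured 2.54, 0.649, 0.555, 0.839 and 1.07 CPM in vehicle females and 0.192, 0.105, 0.803, 0.499 and 1.02 CPM in females at 15 weeks. In males it measured 7.61, 3.85, 1.5, 1.87 and 4.14 CPM in vehicle and 1.48, 0.775, 0.0403, 0.344 and 1.13 CPM at 15 weeks. The male groups did not overlap and the female groups did. The averaged log2 fold change of Tek was -1.70 ± 0.45 (SE, adjusted p = 0.0122, edgeR). Kdr, at 0.222 to 10.7 CPM in vehicle and 0 to 2.84 CPM at 15 weeks, had a log2 fold change of -1.72 ± 0.57 (SE, adjusted p = 0.0383, edgeR). By adjusted p alone, 3 of the 9 genes were thus lower, against 9.66% of all genes. Without single libraries, Tek passed in 20 of 20 fits and Kdr in 10 of 20, with an adjusted p of up to 0.177 (without female vehicle replicate 1, log2 fold change -1.05). Neither gene passed without the 4 libraries that stood apart (Tek -1.12, adjusted p = 0.124; Kdr -0.86, 0.31, edgeR), with a score of fibroblast marker genes (their mean log2 CPM) in the model (-0.82, 0.066; -0.33, 0.544) or with a like score of smooth muscle genes (-0.96, 0.12; -0.70, 0.414).

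The other 4 endothelial genes did not pass at 15 weeks. Cdh5, the adhesion protein of endothelial junctions, ranged from 0.0406 to 8.82 CPM in vehicle and from 0 to 2.71 CPM at 15 weeks (log2 fold change -1.64, adjusted p = 0.0774, edgeR). Its 0 in male replicate 4 allows up to 0.205 CPM, the level of 3 counts in that library. For Vwf the estimate was -0.76 (adjusted p = 0.0664, edgeR), for Eng -1.25 (0.114) and for Flt1 -0.997 (0.145). The median over the 7 genes was -1.25, beside -0.025 over all genes. Ets1, at 5.98 ± 2.54 CPM (SD, n = 10), had a log2 fold change of -0.077 with a 95% interval of -0.54 to 0.38, and Elk3, at 3.85 ± 2.21 CPM, one of 0.055 with an interval of -0.46 to 0.57, so a doubling or halving lay outside both intervals. With the fibroblast score in the model, Elk3 passed by adjusted p at 15 weeks (0.62, adjusted p = 0.0144, edgeR); with the smooth muscle score it had 0.52 (0.171).

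With the sexes averaged, markers of other stromal cells were lower at 15 weeks as well as Pecam1. By median summed level, they were lower in males and not in females. Of 11 fibroblast genes, 6 were called lower (Col3a1, Dpt, Col6a2, Col6a1, Dcn and Lum) and 0 higher, with a summed level of 27.9 to 1328 CPM in vehicle and 13.8 to 168.1 CPM at 15 weeks; Lum and Dpt were at 0 in 1 library each at 15 weeks and Mfap5 in 5. Of 8 smooth muscle genes, 7 were called lower and 0 higher, and Cnn1 and Synm were each at 0 in 2 libraries at 15 weeks. Their summed level was 58.8 to 5862 CPM in vehicle (median 127) and 39.4 to 131 CPM at 15 weeks (median 81.6). The 5862 CPM is from 1 library, male vehicle replicate 1, with a smooth muscle score of 9.24 beside 2.46 to 3.92 in the other vehicle males. With the fibroblast score in the model, the Pecam1 difference was -0.34 (adjusted p = 0.157, edgeR), and with the smooth muscle score it was -0.50 (adjusted p = 0.151). Without the 4 libraries that stood apart it was -0.54 (adjusted p = 0.0997). By sex, the median summed fibroblast level went from 36.04 CPM in vehicle to 65.11 CPM at 15 weeks in females. In males it went from 190.87 to 66.27 CPM. The smooth muscle median went from 92.05 to 93.46 CPM in females and from 137.35 to 67.4 CPM in males. The part of these cell types in the Pecam1 result was not tested further.

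**Figure D2:**
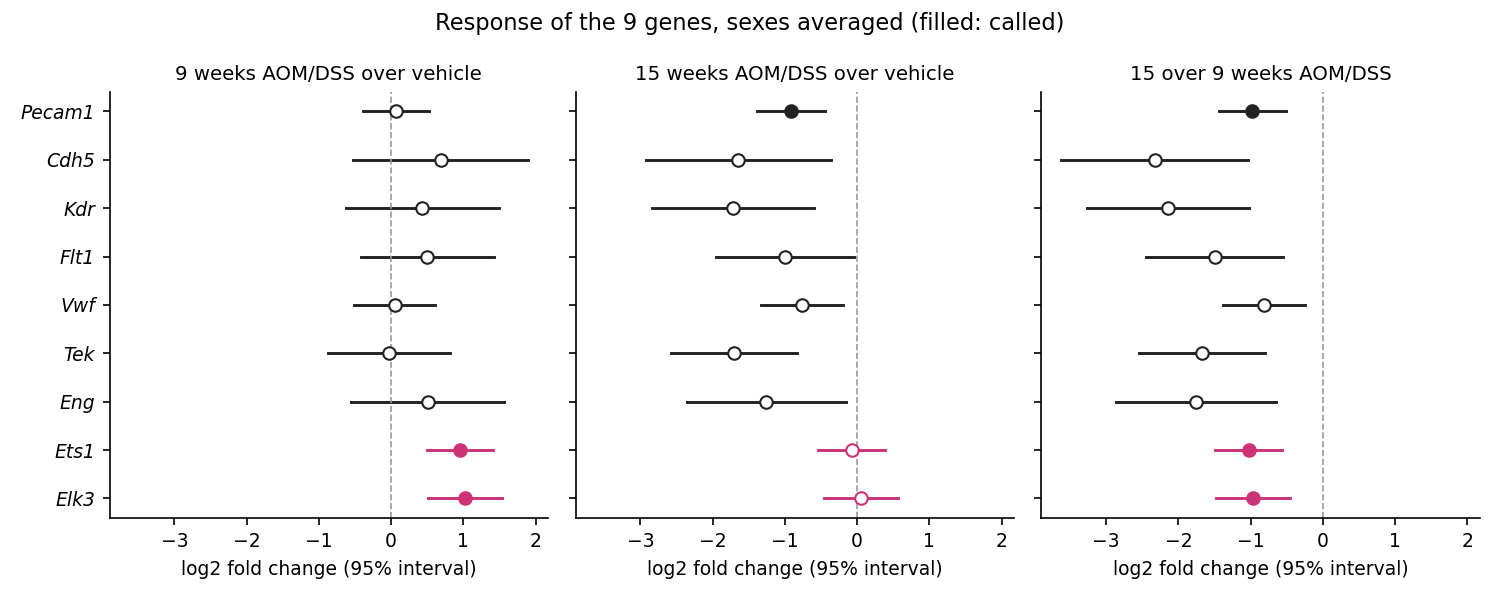
Log2 fold change (points) and 95% interval (lines) of the 9 genes in the 3 comparisons with the sexes averaged (n = 10 libraries per condition); filled points were called. Ets1 and Elk3 lie right of 0 at 9 weeks, the 7 endothelial genes lie left of 0 at 15 weeks, and all 9 lie left of 0 in 15 over 9 weeks.

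The third comparison set 15 weeks directly against 9 weeks of AOM/DSS, with no vehicle library involved in either mean. All 9 genes were lower at 15 weeks by estimate, and Ets1, Elk3 and Pecam1 were called, 3 of 9 genes against 1.91% of all genes. Ets1 fell by 1.03 on the log2 scale (SE 0.24, adjusted p = 0.0175, edgeR), from a range of 4.95 to 19.2 CPM to one of 2.89 to 9.71 CPM. Elk3 fell by 0.97 (SE 0.26, adjusted p = 0.0369), from 3.98 to 9.69 CPM to 2.13 to 9.66 CPM, and Pecam1 fell by 0.98 (SE 0.24, adjusted p = 0.0233), from 6.45 to 20.7 CPM to 3.99 to 11.6 CPM. The ranges overlapped for each of these genes; for Elk3, male replicate 5 at 15 weeks, at 9.66 CPM, was close to the highest level at 9 weeks.

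Cdh5, Kdr and Tek also passed on adjusted p in this comparison, so that 6 of 9 genes were lower by adjusted p alone, against 3.98% of all genes. Cdh5 had the lowest estimate, a log2 fold change of -2.33 ± 0.66 (SE, adjusted p = 0.0419, edgeR), with levels of 0.161 to 7.02 CPM at 9 weeks and 0 to 2.71 CPM at 15 weeks. Kdr had -2.15 (adjusted p = 0.0353, edgeR) and Tek -1.67 (0.034), while Eng (-1.76, 0.0639), Flt1 (-1.5, 0.0655) and Vwf (-0.81, 0.0927) did not pass with all libraries in. Without the 4 libraries that stood apart, all 9 genes passed by adjusted p, Eng at -1.89 (0.00853), Flt1 at -1.61 (0.014) and Vwf at -0.93 (0.00391). Calls rose over all genes too, with 805 of 16587 genes called lower in that fit, beside 310 of 16261 with all libraries in. That fit also leaves out the 9-week female with the lowest mean of the 7 endothelial genes (replicate 5). Without single libraries, Cdh5 passed in 5 of 20 fits, Kdr in 8 and Tek in 12, with adjusted p of up to 0.0832, 0.0692 and 0.07 (edgeR). In this comparison 2 of 11 fibroblast genes (Col3a1 and Dcn), 0 of 8 smooth muscle genes and 2 of 8 macrophage genes (Csf1r and Itgam) were called lower. The share over all genes was 1.91%. The summed fibroblast level was 47.8 to 363 CPM at 9 weeks, the smooth muscle level 59.7 to 282 CPM, and the macrophage level 24.3 to 93.2 CPM at 9 weeks and 16.4 to 57.0 CPM at 15 weeks. With the fibroblast score in the model, no member was called: Ets1 stood at -0.56 (adjusted p = 0.404, edgeR), Pecam1 at -0.27 (0.519) and Elk3 at -0.25 (0.528), and Cdh5 (-0.48, 0.615), Kdr (-0.47, 0.609) and Tek (-0.54, 0.483) did not pass either. The Ets1 call held without each library in turn. The Pecam1 call was lost without male replicate 1 of the 9-week group (adjusted p = 0.055, edgeR) or female replicate 1 of the 15-week group (0.0524), and the Elk3 call in 12 of 20 such fits.

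Within females, the 9-week response of Ets1 and Elk3 passed on its own. Ets1 had a log2 fold change of 1.29 ± 0.34 (SE, adjusted p = 0.0239, edgeR) and Elk3 one of 1.42 ± 0.38 (0.0276), 2 of 9 genes against 2.42% of all genes called higher. In males the estimates were 0.62 ± 0.33 (adjusted p = 0.244) and 0.63 ± 0.37 (0.30), and 0 of 9 genes were called against 7.31% of all genes, with 0 at an unadjusted p under 0.05 and 0 by DESeq2. The responses of the sexes were not shown to differ: the male minus female difference was -0.67 for Ets1, with a 95% interval of -1.58 to 0.25, and -0.79 for Elk3, with one of -1.82 to 0.24 (adjusted p = 0.76 and 0.748, edgeR). Both female calls were lost when the fibroblast score entered the model (Ets1 0.82, adjusted p = 0.225; Elk3 0.70, adjusted p = 0.111). With that score Elk3 was instead called higher in males (1.05, adjusted p = 0.00115), and with the smooth muscle score 2 genes were, Ets1 (1.04, 0.0486) and Elk3 (1.29, 0.0177). The female calls held without female vehicle replicate 1 or without female 9-week replicate 3 or 5 and were each lost without any of the other 7 libraries, with adjusted p of up to 0.111 for Ets1 and 0.0913 for Elk3.

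The endothelial estimates had opposite signs in the sexes at 9 weeks, and the test of the difference did not pass. In females all 7 log2 fold changes were positive, from 0.54 to 1.45 with adjusted p of 0.215 to 0.564, and in males all 7 were negative, from -0.077 to -1.14 with adjusted p of 0.217 to 0.972. The male minus female difference was negative for all 9 genes and reached -2.23 for Tek and -1.43 for Pecam1 (adjusted p = 0.637 and 0.591, edgeR), and 0 of 9 genes were called against 0.0% of all genes, with 2 at an unadjusted p under 0.05. For Pecam1, female levels at 9 weeks were 16.9, 18.1, 11.9, 13.7 and 9.08 CPM, and male levels 20.7, 8.52, 12.4, 6.45 and 14.2 CPM. All 5 treated females were above the vehicle median of 5.65 CPM, with vehicle replicate 1 at 18.3 CPM above them all, and all 5 treated males were below the vehicle median of 21.0 CPM. Without the 4 libraries that stood apart, Pecam1 was called higher in females as well (1.46, adjusted p = 0.00502), and Cdh5 (3.82, 0.0126), Kdr (2.90, 0.0282), Flt1 (2.56, 0.0366) and Vwf (1.49, 0.00842) passed by adjusted p. That fit leaves out the vehicle female with the highest Pecam1 (18.3 CPM) and the 9-week female with the lowest (9.08 CPM). In males the estimates of Cdh5 (0.43), Flt1 (0.076) and Eng (0.016) were then positive.

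At 15 weeks, 2 of the 7 endothelial genes passed in males and 0 in females, and the difference between the sexes did not pass. In males, Pecam1 was called lower (log2 fold change -1.23 ± 0.34 SE, adjusted p = 0.0165, edgeR), 1 of 9 genes against 4.55% of all genes, and Tek passed by adjusted p alone (-2.32 ± 0.63 SE, 0.016), so that 2 of 9 were lower by adjusted p against 8.31% of all genes. For these 2 genes the male groups did not overlap, which was so for 4.21% of all genes in the lower direction. The other endothelial genes of males had estimates of -0.56 to -2.10 with adjusted p of 0.0747 to 0.364. The Pecam1 call in males was lost without vehicle replicate 1 (-1.05, adjusted p = 0.0679), the library with the high smooth muscle score, and all 8 smooth muscle genes were called lower in males in the same comparison. With the fibroblast score in the model, male Pecam1 had -0.24 (adjusted p = 0.582) and Tek -0.65 (0.391), and with the smooth muscle score -0.52 (0.408) and -0.99 (0.362). In females the 7 endothelial estimates were -0.41 to -1.39 with adjusted p of 0.409 to 0.839, and 0 of 9 genes were called against 0.0984% of all genes, with 1 at an unadjusted p under 0.05 and 0 by DESeq2. The male minus female differences in the 15-week response had adjusted p of 0.587 to 0.969 for the 9 genes, and 0 were called against 0.0% of all genes, with 1 at an unadjusted p under 0.05.

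Between 9 and 15 weeks, 0 of 9 genes were called within either sex, against 0.0% of all genes, with 9 of 9 members in females and 4 of 9 in males at an unadjusted p under 0.05; DESeq2 called 1 member lower in each sex, and without the 4 libraries that stood apart 3 were called lower in females. In females, all 9 estimates were negative, from -0.83 for Ets1 to -2.84 for Cdh5. Pecam1 and Tek separated there without overlap, which was so for 0.843% of all genes in that direction: Tek measured 2.92, 3.10, 2.07, 2.89 and 1.08 CPM at 9 weeks and at most 1.02 CPM at 15 weeks. In males the estimates ran from -0.12 for Vwf to -1.82 for Cdh5, and Tek overlapped, at 2.41, 0.611, 2.29, 0.890 and 2.36 CPM at 9 weeks.

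The sexes were also compared directly. In vehicle mice, all 9 genes had a higher mean in males, with log2 differences of 0.69 for Ets1 to 2.0 for Eng, and 0 were called by edgeR against 0.178% of all genes. All 9 had an unadjusted p under 0.05, and DESeq2 called 1. Pecam1 came closest (1.26 ± 0.34 SE, adjusted p = 0.0675, edgeR), and 4 of 5 vehicle females, at 4.74 to 6.37 CPM, lay below every vehicle male, at 11.7 to 28.4 CPM. The fifth female, replicate 1, is the library with the high fibroblast score; without it, 2 members were called higher in males. In the same comparison 6 of 8 smooth muscle genes were called higher in males. Male vehicle replicate 1 was first of the 30 libraries in all 7 endothelial genes and had a smooth muscle score of 9.24, beside 2.46 to 3.92 in the other vehicle males. With that score in the model, 544 of 16261 genes had an unadjusted p under 0.05 (edgeR), beside 3035 without it. The part of smooth muscle in the difference was not tested further. At 9 weeks the 9 estimates were between -0.49 and 0.33 with adjusted p of 0.999, and 0 were called by edgeR or DESeq2 against 0.0492% of all genes, with 0 at an unadjusted p under 0.05.

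At 15 weeks, all 7 endothelial genes had a higher estimate in males than in females, with log2 differences of 0.50 to 1.60 and a median of 0.63. Vwf had the largest of these. Males had 7.30, 4.49, 7.29, 5.79 and 8.63 CPM and females 1.87, 2.10, 2.25, 1.78 and 3.04 CPM, with no overlap, which was so for 0.879% of all genes in that direction. The log2 difference was 1.60 ± 0.42 (SE) and did not pass (adjusted p = 0.0862, edgeR), and 0 of the 9 genes were called by edgeR or DESeq2 against 0.184% of all genes, with 1 at an unadjusted p under 0.05. Of 6 markers of platelets and megakaryocytes, cells that also make Vwf, 4 were tested, with a median log2 difference of 0.076 between males and females at 15 weeks. Of these, 0 were called and 0 had an unadjusted p under 0.05 (edgeR). With 0.184% of all genes called there, a count of 0 was likely whatever the platelet content. The part of platelets in the Vwf difference was not tested.

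The 7 endothelial genes varied together from library to library. Over the 30 libraries, Pearson's r of log2 CPM ranged from 0.629 (Vwf with Eng) to 0.941 (Kdr with Flt1) over their 21 pairs, with a median of 0.832, and the median was 0.757 after group means were removed. These libraries share group, sex and depth, and the values are descriptive. Elk3 followed the endothelial genes more closely, at 0.610 to 0.820, than Ets1 did, at 0.414 to 0.706, and Ets1 and Elk3 correlated with each other at 0.752, or 0.551 after group means were removed.

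**Figure D3:**
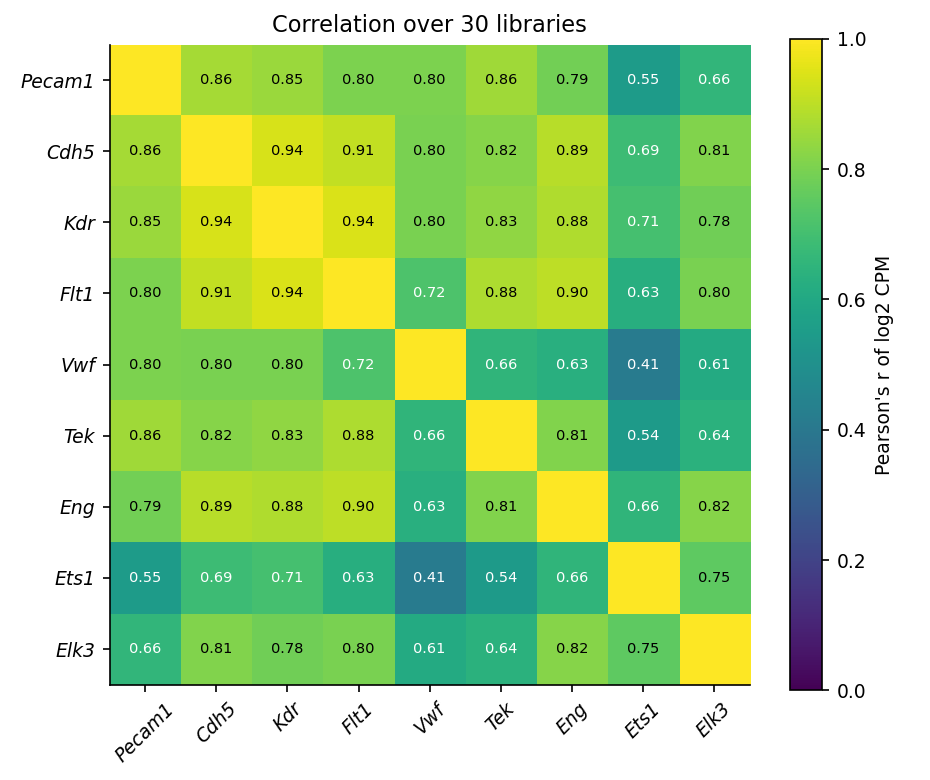
Pearson's r of log2 CPM for each pair of the 9 genes over the 30 libraries, coloured from 0 to 1. The 7 endothelial genes form a block with a median of 0.832, and Ets1 has the lowest values, down to 0.414 with Vwf.

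Beyond the 9 genes, the mean of the 7 endothelial genes was most like Ptprb (0.968), an endothelial receptor phosphatase, Mmrn2 (0.966), an endothelial matrix protein, and Tie1 (0.964), an endothelial receptor related to Tek. Ets1 was most like Ifi203 (0.942), an interferon-inducible gene, Dock10 (0.932) and Nckap1l (0.931), the latter 2 expressed in leukocytes. Elk3 was most like the complement genes C1qa (0.933) and C1qb (0.932), which mark macrophages, and the ceruloplasmin gene Cp (0.928). With the mean level of whole marker lists, the endothelial genes had a median r of 0.926 with 24 other endothelial genes and 0.911 with fibroblast genes. The median was 0.894 with lymphatic endothelial genes, 0.775 with macrophage genes and 0.035 with T cell genes. Elk3 had 0.921 with the leukocyte adhesion genes, 0.919 with macrophage genes, 0.844 with the other endothelial genes and 0.505 with B cell genes. After group means were removed, the first 3 of these were 0.850, 0.869 and 0.890. Ets1 had 0.842 with other ETS factor genes, 0.786 with B cell genes, 0.760 with macrophage genes, 0.757 with the leukocyte adhesion genes and 0.747 with neutrophil genes. With group means removed, these values for Ets1 were 0.752, 0.746, 0.568, 0.567 and 0.614.

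Some macrophage markers rose at 9 weeks beside Ets1 and Elk3. The shares over all genes in that comparison were 5.51% called higher and 2.78% called lower. Of 8 macrophage genes, 3 were called higher (C1qb, C1qa and Itgam) and 0 lower, with a summed level of 12.0 to 127 CPM in vehicle and 24.3 to 93.2 CPM at 9 weeks and none of the 8 at 0 in any library. C1qb had a log2 fold change of 1.34 (adjusted p = 0.027, edgeR) and C1qa one of 1.29 (0.0276). Of 10 T cell genes, 1 was called higher (Cd3g, 1.06, adjusted p = 0.0471) and 0 lower, with a summed level of 10.2 to 22.1 CPM in vehicle and 16.2 to 36.2 CPM at 9 weeks. Of 7 B cell genes 0 were called and 3 had an unadjusted p under 0.05 (edgeR), with a summed level of 2.89 to 54.7 CPM in vehicle and 8.01 to 113 CPM at 9 weeks. Of 6 neutrophil genes, 4 were called higher and 0 lower, led by S100a8 (8.03, adjusted p = 5.95e-05, edgeR). S100a8 was at 0 in 7 of 10 vehicle libraries, so this fitted value is no measure of size. The 6 genes had a summed level of 12.7 to 179 CPM in vehicle and 10.8 to 206 CPM at 9 weeks. Of the 6, 3 to 5 were at 0 in each vehicle female and 0 to 3 in each vehicle male. The sum in vehicle thus came from few genes in many libraries and is no measure of neutrophil content. The part of these cell types in the rise of Ets1 and Elk3 was not tested.

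**Figure D4:**
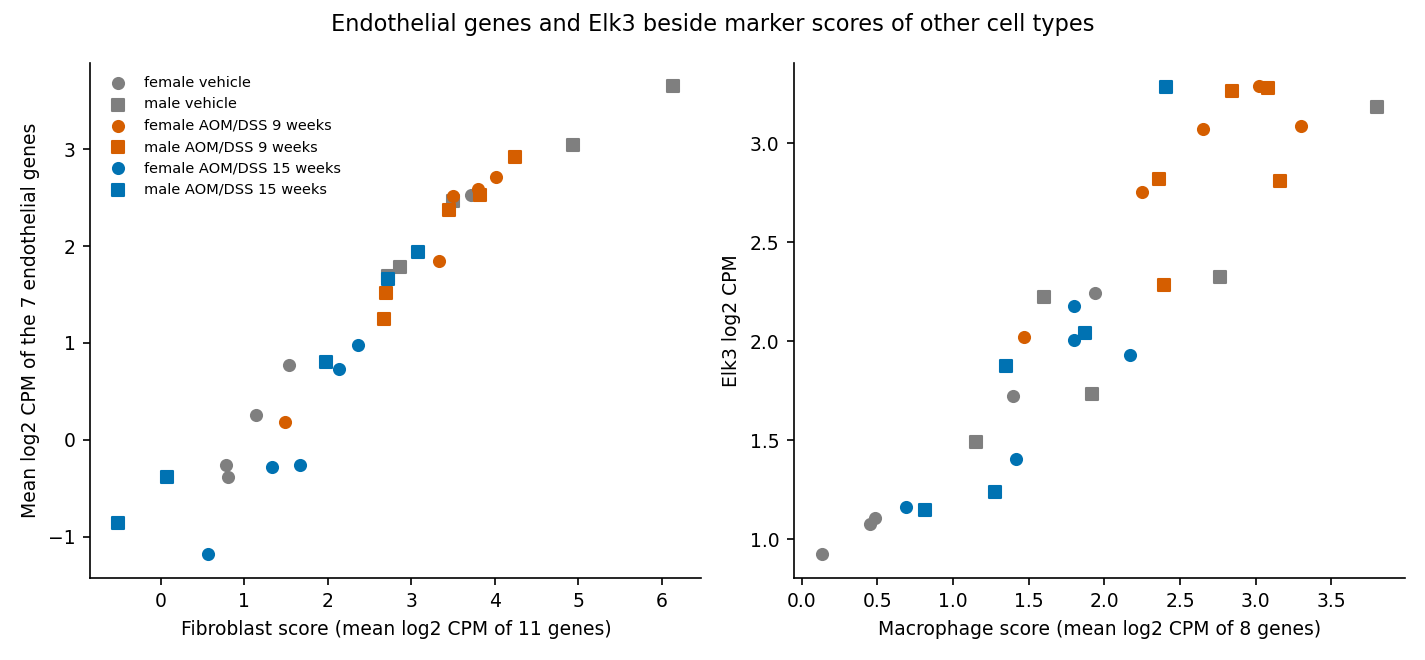
Left, mean log2 CPM of the 7 endothelial genes against the fibroblast score (mean log2 CPM of 11 genes), and right, Elk3 log2 CPM against the macrophage score (mean log2 CPM of 8 genes), 1 point per library (circles, females; squares, males; grey, vehicle; orange, AOM/DSS 9 weeks; blue, AOM/DSS 15 weeks). The endothelial mean spans -1.18 to 3.65 and the fibroblast score -0.51 to 6.14, with the 15-week libraries at no more than 1.94 and 3.08.

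Measured against the endothelial genes of the same library, Ets1 and Elk3 took different positions in the 3 conditions. The difference between log2 CPM of Ets1 and the mean log2 CPM of the 7 genes had a median of 0.85 in vehicle, 1.45 at 9 weeks and 2.46 at 15 weeks. For Elk3 the medians were -0.13, 0.73 and 1.44. Elk3 lay above the endothelial mean in 4 of 10 vehicle libraries, 9 of 10 at 9 weeks and 10 of 10 at 15 weeks, and Ets1 in 9, 10 and 10. These differences are descriptive; against vehicle, Ets1 and Elk3 passed the test at 9 weeks and Pecam1, Tek and Kdr at 15 weeks.

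**Figure D5:**
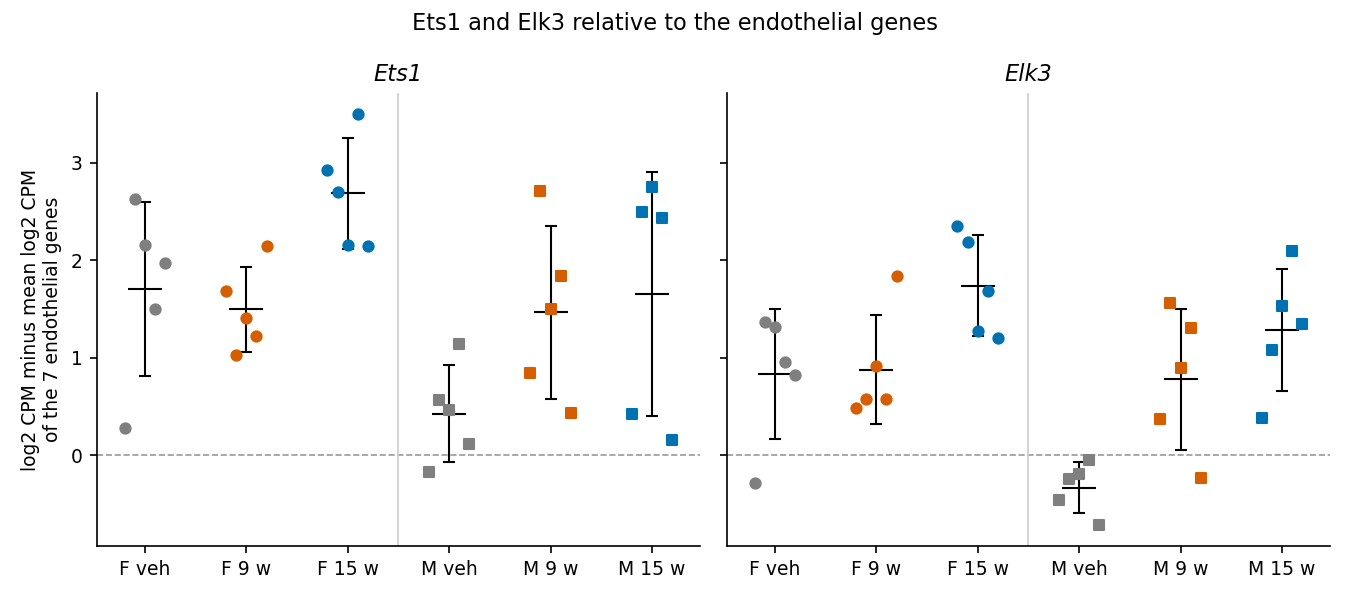
Log2 CPM of Ets1 (left) and Elk3 (right) minus the mean log2 CPM of the 7 endothelial genes in the same library, by group of 5 mice (circles and F, females; squares and M, males; grey, vehicle; orange, AOM/DSS 9 weeks; blue, AOM/DSS 15 weeks), with the mean ± SD. In males all 5 vehicle libraries lie below 0 for Elk3, and all 10 libraries at 15 weeks lie above 0 for both genes.

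The wider endothelial program was read from lists of related genes. Of 24 other endothelial genes, 1 was called higher at 9 weeks and 1 lower, beside 5.51% and 2.78% of all genes. Both counts were thus near the share over all genes. The gene called higher was Ecscr, an endothelial surface protein (1.15 ± 0.26 SE, adjusted p = 0.00304, edgeR). The gene called lower was Clec14a, an endothelial lectin (-0.48 ± 0.11 SE, adjusted p = 0.00293, edgeR). The list median of 0.44 lay near the 0.43 of the 7 genes. At 15 weeks, Ecscr was again higher (0.78, adjusted p = 0.0397, edgeR), although the list median was -1.22. Cd34, a surface protein of endothelial and other stromal cells, was lower (-1.79 ± 0.52 SE, adjusted p = 0.0216, edgeR), as was the junction gene Esam. The shares over all genes at 15 weeks were 3.46% called higher and 3.89% called lower. Clec14a had a mean of 26.3 ± 5.00 CPM in vehicle and 19.0 ± 3.24 CPM at 9 weeks (SD, n = 10 each). Over the vehicle libraries it ranged from 19.0 to 38.0 CPM, while the summed level of the 7 endothelial genes ranged more widely, from 9.57 to 96.0 CPM. Ecscr had a mean of 5.21 ± 1.99 CPM in vehicle and 9.27 ± 5.26 CPM at 15 weeks (SD, n = 10 each). The median summed level of the 7 endothelial genes was 29.9 CPM in vehicle and 14.8 CPM at 15 weeks. Which cells carried Ecscr and Clec14a in these libraries was not tested. Of 6 lymphatic endothelial genes, 0 were called at 9 weeks, with 1 at an unadjusted p under 0.05, and 1 was called lower at 15 weeks, Lyve1, the hyaluronan receptor of lymphatic vessels and of some macrophages (-1.36 ± 0.34 SE, adjusted p = 0.00863).

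Among the vessel lists, the calls with the largest fold changes at 9 weeks were adhesion molecules that recruit leukocytes. Of 5 such genes tested, Icam1 and Vcam1 were called higher at 9 weeks and 0 were called lower, with a list median of 1.91. The shares over all genes were 5.51% and 2.78%. Icam1, which leukocytes bind through integrins and which epithelial and immune cells also express, had 2.94 ± 1.03 CPM in vehicle, 11.9 ± 4.47 CPM at 9 weeks and 5.70 ± 3.19 CPM at 15 weeks (SD, n = 10 each). Its log2 fold change was 2.0 ± 0.30 at 9 weeks (SE, adjusted p = 2.56e-05, edgeR) and 0.96 at 15 weeks (0.026). Vcam1 had 1.84 ± 1.45 CPM in vehicle and 5.25 ± 2.34 CPM at 9 weeks (1.70 ± 0.38 SE, adjusted p = 0.00227), and both genes were called lower in 15 over 9 weeks. Sele, the endothelial E-selectin gene, was at 0 in 9 of 10 vehicle libraries, in 2 of 10 at 9 weeks and in 7 of 10 at 15 weeks.

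No ligand or partner of the endothelial receptors was called, which is near the share over all genes. Of 18 genes of VEGF, angiopoietin, Notch and ALK1 signalling, 0 were called in any of the 3 averaged comparisons, with 7, 8 and 8 at an unadjusted p under 0.05 (edgeR) and list medians of 0.00071, -0.26 and -0.30. Of all 16261 genes, 896, 562 and 68 were called higher and 452, 633 and 310 lower in these comparisons. An unadjusted p under 0.05 was reached by 4720, 5559 and 3846 of them. Genes with a mean under 1 FPKM in both conditions could not be called. Of 21 other ETS factor genes tested, 0 were called at 9 weeks, 1 was called lower at 15 weeks and 0 in 15 over 9 weeks. An unadjusted p under 0.05 (edgeR) was reached by 4, 5 and 8 of the 21. The gene called was Elk1, which like Elk3 encodes a ternary complex factor (-0.47 ± 0.13 SE, adjusted p = 0.0138, edgeR). Etv2, an ETS factor of embryonic endothelium, was at 0 in all 30 libraries. Of 6 pericyte genes, which mark the cells that wrap small vessels, 0 were called in either comparison with vehicle, with 2 and 6 at an unadjusted p under 0.05, and Rgs5 was called lower in 15 over 9 weeks.

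On GRCm38, the endothelial genes lie at chr11:106654217-106750628 (Pecam1), chr8:104101625-104144502 (Cdh5), chr5:75932827-75978458 (Kdr), chr5:147561604-147726011 (Flt1), chr6:125546774-125686679 (Vwf), chr4:94739289-94874976 (Tek) and chr2:32646595-32682669 (Eng). Ets1 lies at chr9:32636221-32757820 and Elk3 at chr10:93247414-93311135. Exons of Elk3 overlap those of Cdk17 on the opposite strand over 316 of 4550 bases, and exons of Eng those of Fpgs over 61 of 4048 bases. The libraries were stranded, but the strand setting of the counting step is not given in the sources used here, so reads of those bases may be shared between partners.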

How the data were processed

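Colon RNA of 30 mice was measured in 6 groups of 5 (sex by vehicle, AOM/DSS 9 weeks and AOM/DSS 15 weeks). Per the labels and the study's methods, the authors demultiplexed reads with bcl2fastq 2.20.0.422, trimmed them with Trim Galore, aligned them to mm10 with STAR, counted reads per gene with featureCounts and estimated abundance with StringTie; their other versions and the strand setting are not given in the sources used here. The authors deposited a table of raw counts for all libraries and, per library, FPKM, TPM and coverage for each gene; coverage was not used. The counts were filtered with filterByExpr (16261 of 46078 genes tested), scaled by TMM (factors 0.832 to 1.10) and tested with edgeR 4.0.16 in R 4.3.3 (quasi-likelihood test, 1 coefficient per group over all 30 libraries, Benjamini-Hochberg adjustment over all tested genes; common biological coefficient of variation 0.319). Fold changes with the sexes averaged weight both sexes equally. A gene was called at an adjusted p under 0.05, an absolute log2 fold change over 0.4 and a mean FPKM of at least 1 in 1 of the compared conditions. Log2 CPM used a prior count of 2. Standard errors are the fold change divided by the root of F. Scripts were tested on simulated data.

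Depth was 9265804 to 30806392 counts per library. The 9 genes held 0 to 874 counts per library, so single low values carry large counting error, and the floor of 3 counts covers counting error only. No 2 libraries of a group agreed within sampling noise. Each library is 1 mouse. The 9 genes and the 14 gene lists beside them were chosen with earlier results of these data known. Named genes were all 9 members, from each list up to 2 genes per direction with the largest fold change among those called at 9 weeks and up to 1 at 15 weeks, and for Ets1, Elk3 and the endothelial mean the 3 genes with the highest correlation. Itgam, Csf1r, Esam, Rgs5, Sele and Etv2 and the 6 fibroblast genes beside Lum were named after their values were seen. One list symbol (Pdpn) was on more than 1 row and was left out. Alternatives were DESeq2 1.42.0, RLE size factors, edgeR on only the compared libraries, no filter on low counts, adjusted p alone, the replicate number as a block, a fibroblast score as covariate and each library left out; a smooth muscle score as covariate and leaving out 4 libraries were chosen after seeing the data. The replicate numbers did not pair the mice and were not used as a block in the results given.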

Additional observations from a re-analysis of the deposited data

Results flagged for a closer look

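Each of the 9 genes was examined in each of the 6 groups of 5 libraries for a value far from the others, 54 sets in all, of which chance alone would mark about 1 in 20. One set was marked: Pecam1 in female vehicle replicate 1 had a log2 CPM of 4.20 against a group median of 2.52, which is further from the other 4 females than Dixon's limit of 0.71 for the share of the range allows. The same library had the highest fibroblast score of its group, 3.71 beside 0.78 to 1.53 in the other 4. The part of this in the Pecam1 value was not tested.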

How the results depend on the processing

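Counts of members called, with the sexes averaged, were 2 higher at 9 weeks and stayed at 2 under every alternative run. For 15 weeks over vehicle the count of 1 lower became 3 by adjusted p alone and 0 with the fibroblast score, 0 with the smooth muscle score and 0 without the 4 libraries that stood apart. For 15 over 9 weeks the count of 3 lower became 6 by adjusted p alone and ran from 1 to 4 when single libraries were left out. It became 0 with the fibroblast score, where 0 of 16261 genes were called, and 0 with the smooth muscle score, where 20 were called lower. In females at 9 weeks the count of 2 higher became 0 with either score and 1 when only the compared libraries were fitted, and ran from 0 to 3 without single libraries. In males at 9 weeks the count of 0 higher became 1 with the fibroblast score and 2 with the smooth muscle score. In males at 15 weeks the count of 1 lower became 2 by adjusted p alone and 0 with either score or with only the compared libraries, and ran from 0 to 1 without single libraries. In 15 over 9 weeks the count of 0 lower became 1 by DESeq2 in females and 1 in males, and 3 in females without the 4 libraries, with 0 to 1 without single libraries. In vehicle the count of 0 higher in males became 1 by DESeq2 and 1 without the 4 libraries, with 0 to 2 without single libraries. The causes were not tested.

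Small fold changes that did not pass changed sign in places. At 9 weeks Pecam1 became -0.073 and Vwf -0.073 with the fibroblast score, and they ran from -0.067 to 0.34 and from -0.047 to 0.31 without single libraries. Tek became 0.071 with the smooth muscle score and 0.64 without the 4 libraries, and ran from -0.13 to 0.26. At 15 weeks Flt1 became 0.025 and Ets1 0.28 with the fibroblast score, Ets1 0.22 with the smooth muscle score and 0.085 without the 4 libraries; Ets1 ran from -0.25 to 0.022 and Elk3 from -0.20 to 0.23 without single libraries. Vwf in 15 over 9 weeks became 0.047 with the fibroblast score.

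The Elk3 call in 15 over 9 weeks was kept without 8 of the 20 libraries, namely 9-week females 3 and 5, 9-week males 4 and 5, 15-week females 3 and 5 and 15-week males 2 and 5, and was lost without any of the other 12 (adjusted p 0.0583 to 0.0789). Same-numbered libraries did not deviate together: over 75 pairs the correlation ran from -0.58 to 0.47 with a median of -0.026, 12 were above 0.1, and 4 of 30 libraries correlated best with their own number. With the replicate number as a block, no count of calls moved, Kdr at 15 weeks over vehicle no longer passed by adjusted p (0.0958) and Tek at 9 weeks became 0.14. Depth limits the low genes most: Cdh5 and Kdr had 0 counts in 1 library each.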
